A study of Rattus norvegicus with 9 samples.

Results

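Potassium channel genes were taken as the genes whose single symbol in the array annotation begins with Kcn. They numbered 54 of the 4736 genes that a probe set of the array named alone, and 82 probe sets carried them. Of the 54 genes, 32 had 1 probe set and 22 had several, and each gene is given at its brightest probe set by mean over all arrays unless another is named. With BMP-7, no member of the family passed a test adjusted over the whole array at either time. At the brightest probe sets, Kcnh1 and Kcnc1, both voltage-gated channel genes, had the only member values at 24 hr past the unadjusted thresholds of the study (a p below 0.05 and a fold change of 1.2 or more), and both values were higher than in control. A dimmer Kcnd2 probe set also passed them at 24 hr, with a lower value than in control.

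The arrays were Affymetrix Rat Genome U34A arrays of RNA from sympathetic neurons of the superior cervical ganglion of Holtzman rat embryos at embryonic day 21. All cultures were grown without serum, with nerve growth factor at 100 ng/ml, and had been given the antimitotic Ara-C for 48 hr to deplete non-neuronal cells. On day 5 the control group stayed in medium alone for 24 hr, bone morphogenetic protein 7 (BMP-7, 50 ng/ml) was given to the BMP6h group for 6 hr, and the BMP24h group had the same dose over 24 hr. Each condition had 3 arrays, each of neurons pooled within a culture experiment, and the experiment was repeated over 3 independent dissections. Replicate 1 of each condition formed processing batch 1, with 10 µg of labelled target per array, and replicates 2 and 3 formed batch 2, with 5 µg. Per the study's methods, RNA of the 3 conditions was taken on the same day in culture, from sister cultures of a dissection. The hour at which the BMP6h group was given BMP-7 is not stated, so equal culture age in the 6 hr comparisons cannot be checked.

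Potassium channels set the resting potential of a neuron and bring the membrane back after an action potential. Voltage-gated members open on depolarization, inward rectifiers and two-pore channels hold the membrane near rest, and calcium- or sodium-activated members open when those ions rise inside the cell. Sympathetic neurons are known for the M current, a slow current through KCNQ channels that muscarinic receptors close through phospholipase C, and for a transient current through Kv4 (Shal) channels. BMP-7 makes these neurons extend dendrites, and the comparisons asked which transcripts differed early and late in that response.

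Values are log2 expression, on which a difference of 1 is a doubling, and over all probe sets they ran from 2.69 to 14.38. Of the 54 genes, 36 had a mean below the median of all probe set means, which was 6.80, and 18 were at or above it. Tyrosine hydroxylase (Th), the enzyme that marks noradrenergic neurons, read 13.48, 13.50 and 13.50 on the control arrays. The mean of 10 fibroblast markers ran from 9.74 to 10.07 in control and from 9.48 to 9.64 at 24 hr, and the mean of 10 glial markers ran from 7.38 to 7.46 and from 7.33 to 7.56. At 24 hr 8 of the 10 fibroblast markers had lower values than in control and 4 of them passed the unadjusted thresholds, against 47.8% of all genes that were lower and 2.05% that passed with a lower value. The mean of the 54 channel genes ran from 6.26 to 6.30 in control, from 6.14 to 6.28 at 6 hr and from 6.25 to 6.33 at 24 hr. The part of the fibroblast markers in any channel value was not tested, and in such cultures fewer cells of a type and less RNA per cell cannot be told apart.

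BMP6h replicate 2 stood apart from the other arrays. Each array was set against the average of its 2 replicates, and the share of all probe sets differing by over 1 on the log2 scale was 9.99% on it and 0.0229% to 4.21% on the remaining arrays. Its median difference over the 54 channel genes was -0.23, and 3 of them lay more than 1 unit away. Without it the sign of the 6 hr value turned for 22 of the 54 genes, so the 6 hr values of members named below are also given without this array.

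**Figure D1:**
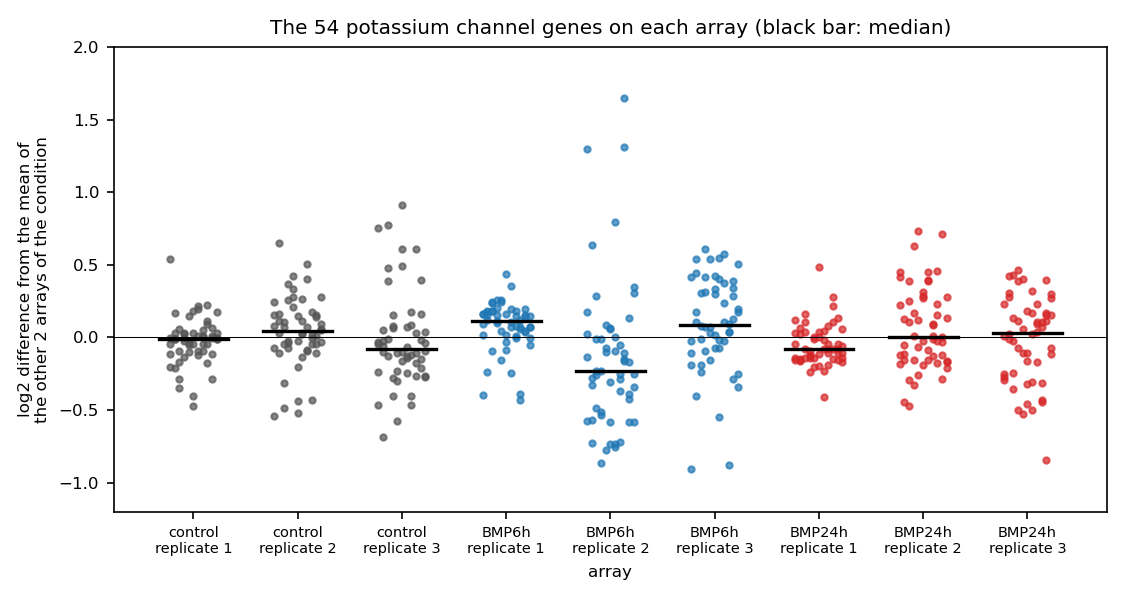
Log2 difference (vertical axis) of each potassium channel gene between an array (horizontal axis, 9 arrays) and the average of its 2 replicates; points are the 54 genes and black bars are medians. Kcnv1 on BMP6h replicate 3, more than 1 unit below its replicates, lies outside the axis range and is not seen. BMP6h replicate 2 has the widest scatter, with a median of -0.23 and 3 genes above 1.

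Over the whole family the differences were small. At 6 hr 17 genes had higher and 37 lower values than in control, and their log2 fold changes ran from -0.45 to 0.63 (median -0.10). Over all 4736 genes 42.7% were higher and 57.3% lower. Without BMP6h replicate 2 the split turned to 33 higher and 21 lower, 38.9% lower against 51.1% of all genes, and the median became 0.03. At 24 hr 25 genes had higher and 29 lower values. Their median was -0.01 and their range -0.41 to 0.65, and 52.2% of all genes were higher. Set against 6 hr, 36 genes had higher and 18 lower values at 24 hr (median 0.07), where 56.7% of all genes were higher. Without BMP6h replicate 2 these were 29 and 25 (median 0.01). The 2 comparisons with control share the control arrays.

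With limma and Benjamini-Hochberg adjustment over all probe sets, 0 of the 54 genes passed at 6 hr, where 0.0422% of all genes did, 0 at 24 hr, where 0.211% did, and 0 between the time points, where 0% did. Counts by the ordinary two-way analysis of variance were also 0. At an unadjusted p under 0.05 by limma there were 0, 2 and 1 of the 54 genes in the same comparisons, against 85, 183 and 156 of all 4736 genes. The study's own thresholds asked for a fold change of 1.2 or more in either direction and an unadjusted p below 0.05. These were passed by 0 of 54 genes at 6 hr, where 1.79% of all genes passed, and by 2 of 54, or 3.7%, at 24 hr, where 3.82% of all genes passed. Both members were higher, as were 1.77% of all genes. Between 6 and 24 hr 1 of 54 passed with a higher value, against 3.21% of all genes in either direction and 1.58% higher, and 0 of 54 had an F-test p under 0.005 across the conditions, against 0.929%. The shares at 24 hr were thus near the background of the array.

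The arrays also bounded how large a change in probe set signal could have been. Of the 54 genes 36 lay below the median of all probe set means, and whether their transcripts were detected was not tested. The standard error of a log2 fold change was between 0.11 and 0.44, with a median of 0.18. The 95% interval of the difference from control lay within a 2-fold change in either direction for 50 of 54 genes at 6 hr, the exceptions being Kcnc2, Kcnj14, Kcnj6 and Kcnv1. At 24 hr it did so for 52 genes, the exceptions being Kcnh1 and Kcnv1. Within a 1.5-fold change the numbers were 30 at 6 hr and 31 at 24 hr, so that smaller changes were not detectable for many members.

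**Figure D2:**
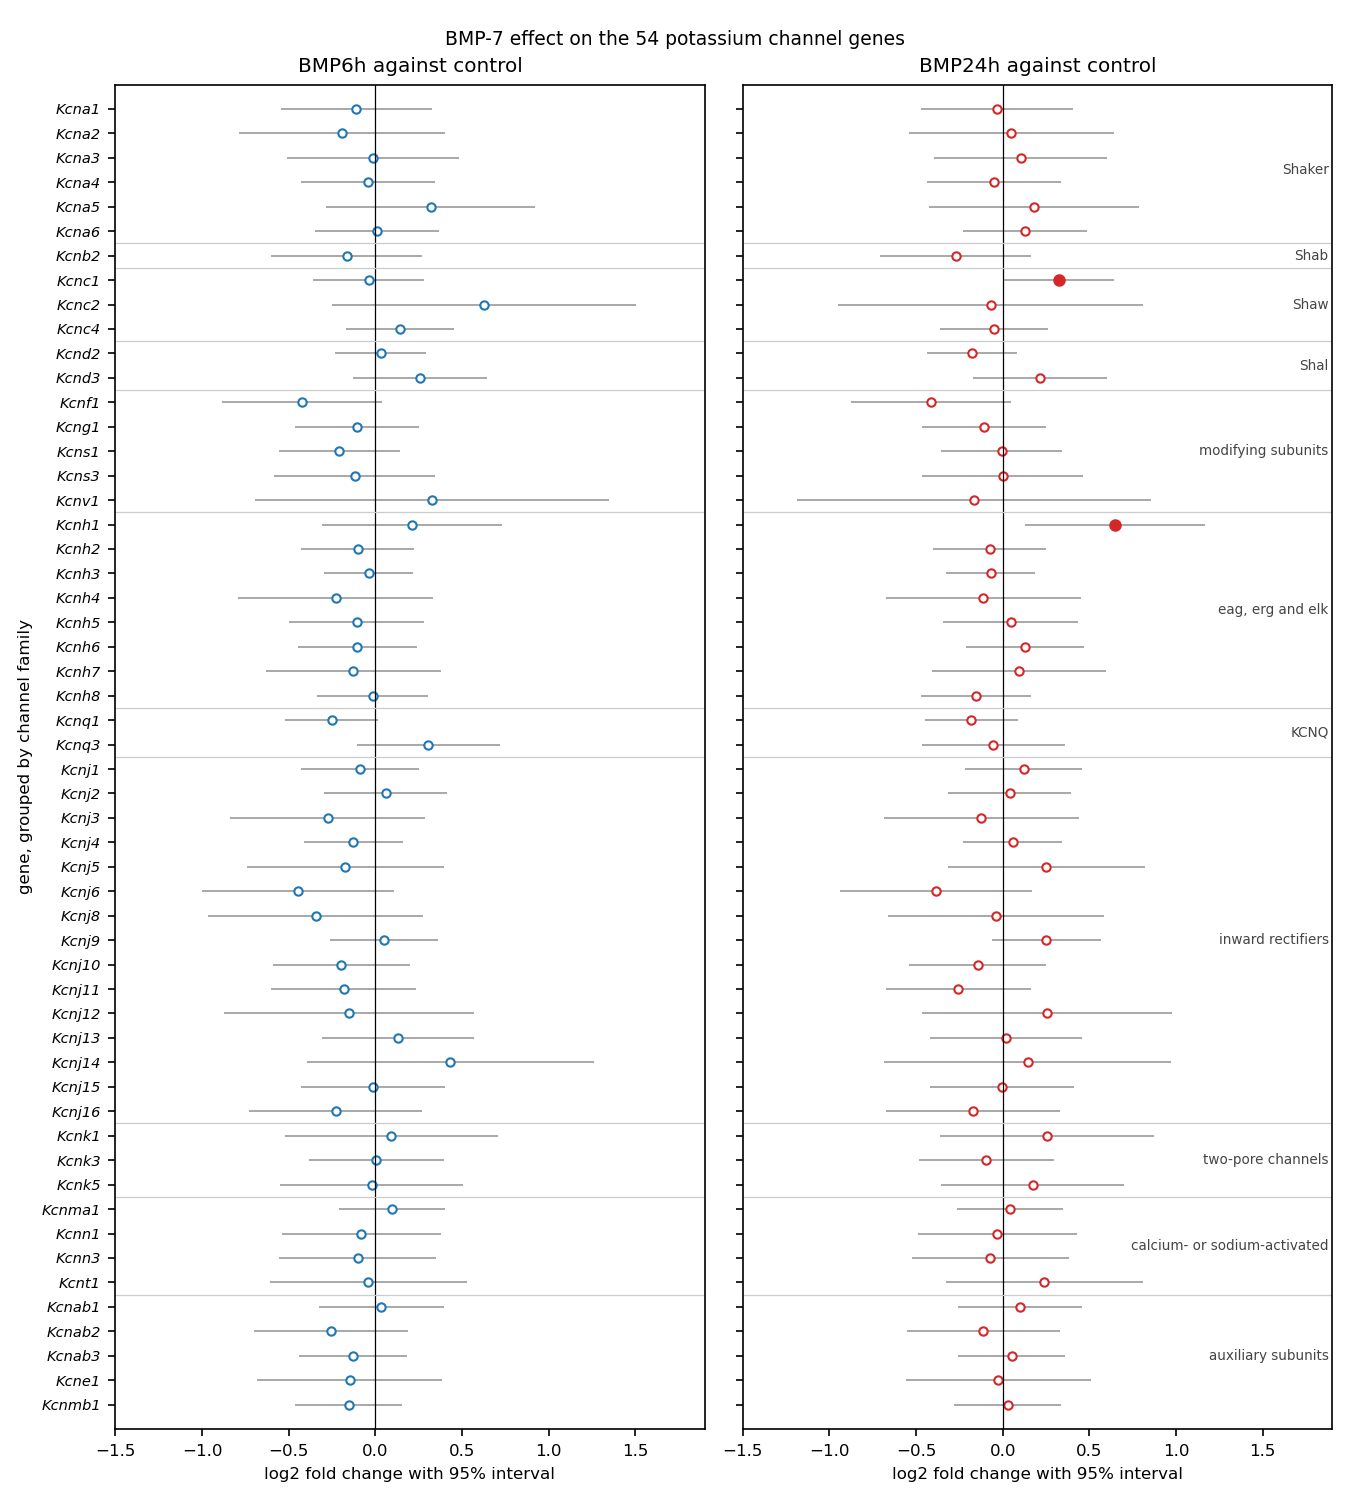
Log2 fold change against control (horizontal axes) with its 95% interval from limma for the 54 potassium channel genes, grouped by family, at 6 hr (left) and 24 hr (right). Filled points passed the unadjusted thresholds, which at 24 hr were Kcnh1 (0.65) and Kcnc1 (0.32), and all other intervals in both panels include 0.

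Among the voltage-gated channels of the eag, erg and elk family, Kcnh1 had the largest log2 fold change of any member at 24 hr. Kcnh1 encodes eag1 (Kv10.1), a slowly activating channel of neurons. It read 6.30, 6.43 and 6.97 in control, 6.72, 6.83 and 6.79 at 6 hr, and 7.54, 7.20 and 6.91 at 24 hr (probe set Z34264_at). The highest control array, replicate 3, overlapped the lowest array at 24 hr, whereas all 24 hr arrays were above all 6 hr arrays. The means were 6.57 ± 0.36, 6.78 ± 0.05 and 7.22 ± 0.32 (SD, n = 3 each). At 6 hr the log2 fold change was 0.21 (0.19 without BMP6h replicate 2). At 24 hr it was 0.65 by limma (SE 0.22, 95% interval 0.13 to 1.17, 1.57-fold), with an unadjusted p of 0.0205 and an adjusted p of 1.00. It was 1.24 within batch 1, which has a single array per condition, and 0.35 within batch 2. With weights that give less influence to the more variable arrays the value was 1.06 with an adjusted p of 0.00367 by limma. By the same fit 9.44% of all genes passed the unadjusted thresholds, and 280 adjusted tests passed over the whole array. The weights were 5.76, 0.38 and 0.72 for BMP24h replicates 1 to 3. For the control replicates they were 2.93, 1.84 and 0.25, so the weighted value leaned on replicate 1. Because the batch had been removed before deposit, replicate 1 values depend on the other arrays. The part of this in the weights was not tested. The unadjusted call was lost without control replicate 1, control replicate 2 or BMP24h replicate 1, with values of 0.45, 0.58 and 0.41, and without control replicate 3 the value was 0.87.

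The other 7 members of that family, Kcnh2 to Kcnh8, ran from -0.15 to 0.13 at 24 hr. Kcnh8, an elk channel gene, read 6.89, 6.87 and 6.92 in control and 6.78, 6.60 and 6.84 at 24 hr, with all 24 hr arrays below the control arrays (log2 fold change -0.15). The dimmer Kcnh8 probe set gave 0.06 at 24 hr, with arrays that overlapped control. Kcnh6, an erg channel gene, read 5.68, 5.69 and 5.56 in control and 5.74, 5.78 and 5.80 at 24 hr, with all 24 hr arrays above (log2 fold change 0.13). Neither passed a threshold.

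Kcnc1 encodes Kv3.1, a Shaw channel whose fast opening and closing lets neurons fire at high rates. It read 5.31, 5.56 and 5.14 in control, 5.33, 5.24 and 5.31 at 6 hr, and 5.65, 5.74 and 5.58 at 24 hr (probe set X62840mRNA_s_at). All 24 hr arrays were above all control and all 6 hr arrays, though the gap between the highest control and the lowest 24 hr array was narrow. The probe set is dim, with a mean of 5.43 over all arrays, below the median of 6.80 for all probe sets. Against control at 24 hr the log2 fold change was 0.32 (SE 0.14, 1.25-fold), with a p of 0.0484 and an adjusted p of 1.00 by limma. Against 6 hr it was 0.36 (SE 0.14, 1.29-fold), with a p of 0.0314 and an adjusted p of 0.939. The value against control was 0.34 within batch 1 and 0.31 within batch 2, and at 6 hr the value was -0.04 (-0.01 without BMP6h replicate 2). Leaving out 1 array gave 0.21 to 0.44 against control, and the unadjusted call held only without control replicate 2 or BMP6h replicate 2. Against 6 hr the same step gave 0.32 to 0.40, and the call was lost without control replicate 1, any of the BMP6h arrays, or BMP24h replicate 1 or 2.

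The other Shaw members did not follow Kcnc1 in sign at 24 hr. Kcnc4 (Kv3.4) gave 0.14 at 6 hr (0.23 without BMP6h replicate 2) and -0.05 at 24 hr on the log2 scale. Kcnc2 (Kv3.2) had the largest value of any member at 6 hr, 0.63 (SE 0.38). It read 4.77, 4.37 and 4.10 in control and 4.78, 5.91 and 4.44 at 6 hr, so that BMP6h replicate 2 alone was high. Without that array the value was 0.16 (SE 0.22).

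**Figure D3:**
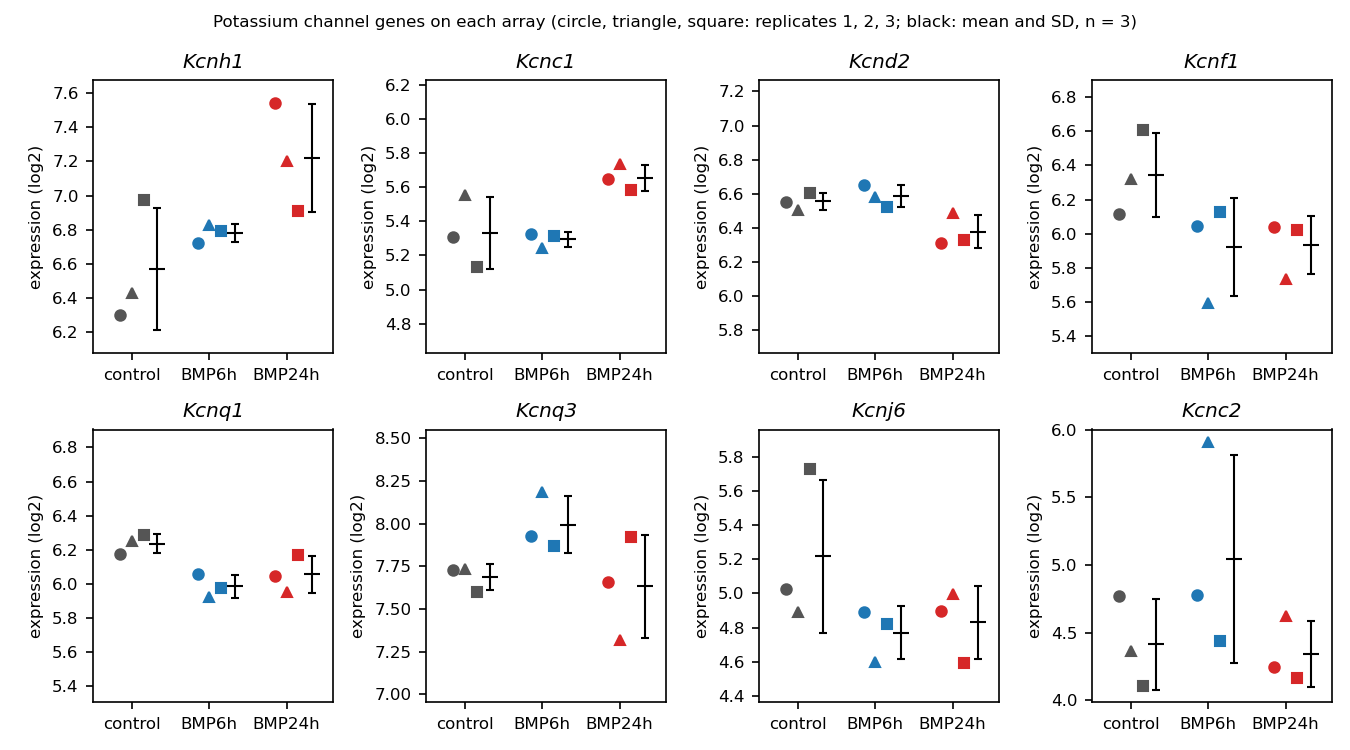
Log2 expression (vertical axes, each with its own range) of 8 potassium channel genes on the 9 arrays, by condition, with circle, triangle and square for replicates 1, 2 and 3, and black bars for the mean and SD (n = 3). Kcnh1 overlaps between control and 24 hr while the Kcnc1 arrays at 24 hr are above all others, and the Kcnc2 value at 6 hr rests on replicate 2.

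The Shal channels carry the transient current of these neurons. At its brightest probe set, S64320_at, Kcnd2, which encodes Kv4.2, read 6.55, 6.51 and 6.61 in control, 6.65, 6.58 and 6.52 at 6 hr, and 6.31, 6.49 and 6.33 at 24 hr. All 24 hr arrays were below all control and all 6 hr arrays, and the log2 fold change at 24 hr was -0.18 (SE 0.11), with a p of 0.153 by limma, 1.13-fold lower.

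A second, dimmer Kcnd2 probe set, M59980_s_at, pointed the same way at 24 hr. It read 5.74, 5.71 and 5.84 in control, 5.67, 5.63 and 5.65 at 6 hr, and 5.45, 5.51 and 5.39 at 24 hr, with no overlap between any conditions. The difference from control was -0.11 on the log2 scale at 6 hr and -0.31 at 24 hr (SE 0.11, 1.24-fold lower), the latter with a p of 0.0205 and an adjusted p of 1.00 by limma, and its F-test p across the conditions was 0.0542. It passed the unadjusted thresholds in 5 of the 9 fits that each left out 1 array, failing without control replicate 1 or 3 or BMP24h replicate 1 or 3. The probe sets of Kcnd2 thus shared the sign at 24 hr and differed in sign at 6 hr, where the brighter gave 0.03. Without BMP6h replicate 2 the 6 hr values were -0.10 at the dimmer and 0.03 at the brighter. Kcnd3 (Kv4.3) had values of 0.26 at 6 hr (0.13 without that array) and 0.22 at 24 hr, and its other probe sets gave -0.36 and 0.12 at 24 hr.

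KCNQ genes were represented by Kcnq1 and Kcnq3. Kcnq3 encodes a subunit of the M channel. It read 7.73, 7.74 and 7.60 in control, 7.93, 8.18 and 7.87 at 6 hr, and 7.66, 7.32 and 7.92 at 24 hr. All 6 hr arrays were above the control arrays, while the 24 hr arrays spread on both sides of them. The difference from control was 0.31 at 6 hr (SE 0.18, p of 0.124 by limma) and -0.06 at 24 hr on the log2 scale, and a second probe set gave -0.05 and 0.26. Without BMP6h replicate 2 the 6 hr values were 0.20 and 0.00. Kcnq1, known from heart and epithelia, read 6.18, 6.25 and 6.28 in control, 6.06, 5.93 and 5.97 at 6 hr, and 6.05, 5.95 and 6.17 at 24 hr. Its arrays at both times were below the control arrays, with log2 fold changes of -0.25 (SE 0.11, p of 0.0614) and -0.18 (p of 0.155) by limma, the former -0.22 without that array.

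Shaker channels, the Kcna genes, open quickly on depolarization and are known along axons. The 6 measured members, Kcna1 to Kcna6, had values from -0.05 to 0.18 at 24 hr, with 4 higher and 2 lower. At 6 hr 2 were higher and 4 lower, and without BMP6h replicate 2 all 6 were higher. Kcna2 (Kv1.2) gave -0.19 at 6 hr, which turned to 0.07 without that array, and 0.05 at 24 hr. Kcnb2, a Shab gene, gave -0.16 (-0.13 without that array) and -0.27.

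Modifying subunits do not form channels alone and alter Shab channels when they join them. All 5 measured, Kcnf1, Kcng1, Kcns1, Kcns3 and Kcnv1, had values below 0 at 24 hr, from -0.41 for Kcnf1 to -0.00 for Kcns3. Kcnf1 (Kv5.1) read 6.12, 6.32 and 6.61 in control, 6.04, 5.60 and 6.12 at 6 hr, and 6.04, 5.74 and 6.02 at 24 hr. The 24 hr arrays were all below the control arrays, and at 6 hr replicate 3 overlapped the lowest control array. It differed from control by -0.42 at 6 hr (SE 0.20, p of 0.0665) and -0.41 at 24 hr (p of 0.0718) by limma, in log2 units, and at 24 hr it was -0.08 within batch 1 and -0.58 within batch 2. Without BMP6h replicate 2 the 6 hr value was -0.25 (p of 0.197 by limma). Kcns1 was lower on all 6 hr arrays than in control, at -0.21, with BMP6h replicate 2 the lowest at 5.46, and without that array the value was -0.05.

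The 15 inward rectifier genes, the Kcnj family, let potassium pass more readily into than out of the cell. At 6 hr 4 had higher and 11 lower values, or 6 and 9 without BMP6h replicate 2, and at 24 hr 8 had higher and 7 lower values, from -0.39 to 0.25. None passed a threshold. Kcnj6, which encodes GIRK2 of the channels that G proteins open, read 5.03, 4.89 and 5.73 in control, 4.89, 4.60 and 4.82 at 6 hr, and 4.90, 5.00 and 4.59 at 24 hr. It differed from control by -0.45 log2 units at 6 hr (SE 0.24, or -0.35 without BMP6h replicate 2) and -0.39 at 24 hr, and control replicate 3 was far above the other control arrays. Kcnj3, its partner GIRK1, gave -0.27 at 6 hr, which turned to 0.04 without that array, and -0.12 at 24 hr.

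Kcnj11 and Kcnj8 encode the pores of ATP-sensitive channels, which open when ATP falls. Kcnj11 read 7.93, 7.98 and 8.12 in control and 7.70, 7.73 and 7.83 at 24 hr, with no overlap and a log2 fold change of -0.26 (SE 0.18). Kcnj8, also known as a marker of mural cells of vessels, read 6.73, 6.85 and 7.19 in control, 6.68, 6.67 and 6.39 at 6 hr, and 6.97, 7.36 and 6.32 at 24 hr. Its 6 hr arrays were below the control arrays, at -0.34 (SE 0.27, or -0.39 without BMP6h replicate 2), and its 24 hr arrays spread around them. The mean of 9 endothelial and mural markers ran from 7.03 to 7.26 in control, from 6.85 to 7.04 at 6 hr and from 6.88 to 7.02 at 24 hr, and its part in the Kcnj8 values was not tested. Kcnj10, which satellite glia are known to express, gave -0.20 (-0.19 without that array) and -0.15. Its dimmer probe set gave 0.11 (0.04 without that array) and -0.01.

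The remaining families held no member past a threshold. The 3 two-pore genes, Kcnk1, Kcnk3 and Kcnk5, which carry leak current, had values from -0.10 to 0.26 at 24 hr. The 4 calcium- or sodium-activated genes ran from -0.07 to 0.24. Among them Kcnma1, the large-conductance BK channel, gave 0.10 at 6 hr (0.03 without BMP6h replicate 2) and 0.04 at 24 hr, and Kcnn3, a small-conductance channel of the afterhyperpolarization that follows spikes, gave -0.10 at 6 hr, which turned to 0.11 without that array, and -0.07 at 24 hr. The 5 auxiliary subunits, Kcnab1, Kcnab2, Kcnab3, Kcne1 and Kcnmb1, ran from -0.11 to 0.10.

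Members whose arrays did not overlap between conditions were about as common as such genes over the whole array. At 6 hr there were 5 of 54, against 10.5% of all genes, with Kcnq3 above (3.12% of all genes were) and Kcnj6, Kcnj8, Kcnq1 and Kcns1 below control (7.37%). At 24 hr there were 7 of 54, against 13.6%, with Kcnc1 and Kcnh6 above (5.95%) and Kcnd2, Kcnf1, Kcnh8, Kcnj11 and Kcnq1 below (7.69%). Between 6 and 24 hr there were 5 of 54, against 10.4%, with Kcnc1, Kcnh1, Kcnj4 and Kcnj9 above (6.12%) and Kcnd2 below (4.27%). Kcnj4 gave 0.18 there at its brightest probe set and -0.02 at its other.

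Probe sets of the same gene often disagreed. Of the 22 genes with several, all probe sets had the same sign in 16 at 6 hr and in 11 at 24 hr. Among them only Kcnd2 had a probe set past the thresholds at 24 hr, and its other probe set had the same sign. Some dimmer probe sets were raised on BMP6h replicate 2 alone, such as those of Kcna2 (J04731_at, 6.16 on that array) and Kcnd3 (M74898cds_s_at, 7.82).

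**Figure D4:**
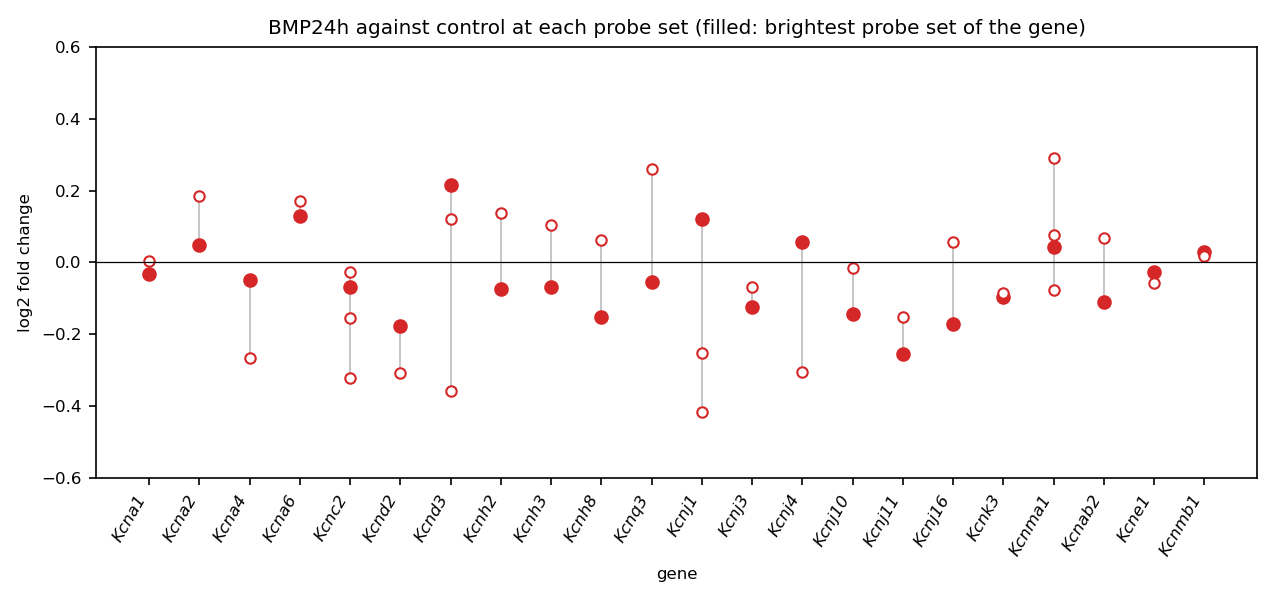
Log2 fold change at 24 hr against control (vertical axis) at every probe set of the 22 potassium channel genes that have several, with the brightest filled and lines joining probe sets of a gene. In 11 genes all probe sets lie on the same side of 0, among them both Kcnd2 probe sets at -0.18 and -0.31.

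Several members lie side by side in the genome. By gene order in the RefSeq annotation of GRCr8, no other coding gene lay between Kcnj11 and Abcc8, Kcnj8 and Abcc9, Kcnj2 and Kcnj16, Kcnj6 and Kcnj15, Kcnj9 and Kcnj10, Kcnj1 and Kcnj5, or the Shaker pairs Kcna2 and Kcna3, Kcna1 and Kcna5, and Kcna1 and Kcna6. Abcc8 and Abcc9 encode the sulphonylurea receptors that surround the pores of ATP-sensitive channels. At its brighter probe set Abcc8 read 6.57, 6.58 and 7.63 in control and 6.34, 5.50 and 6.22 at 6 hr, a log2 fold change of -0.91 (SE 0.34, p of 0.0284 by limma, adjusted p of 0.887). Its other probe set gave 0.18, and the unadjusted call was lost without control replicate 3 or BMP6h replicate 2.

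Genes that act with potassium channels were examined as a list of 43, of which 25 were measured. None passed the adjusted test. At the unadjusted thresholds Abcc8 alone passed at 6 hr, with a lower value, which is 4% of the list against 1.79% of all genes. At 24 hr 2 had higher and 2 lower values, which is 16% against 3.82%. The list was chosen with earlier results of these data known, so these shares do not test it. Those at 24 hr included phospholipase C and G protein regulators that act on M channels and on GIRK channels. Plcb1, a phospholipase C downstream of muscarinic receptors, read 8.73, 8.70 and 8.70 in control, 8.70, 8.76 and 8.68 at 6 hr, and 7.75, 7.53 and 7.98 at 24 hr. The 24 hr arrays were all well below the rest, with a log2 fold change of -0.96 (SE 0.14) and an adjusted p of 0.0604 by limma, and its 2 dimmer probe sets gave -0.36 and -0.53.

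Plcb3, a relative of Plcb1, had higher values at 24 hr. It read 7.31, 7.48 and 7.65 in control, 7.81, 7.61 and 7.85 at 6 hr, and 8.57, 8.70 and 8.08 at 24 hr, with a log2 fold change at 24 hr of 0.97 (SE 0.19, adjusted p of 0.215 by limma), and a second probe set gave 0.91. Rgs4 speeds the closing of GIRK channels by ending the signal of G proteins. It read 10.17, 9.87 and 10.49 in control, 10.20, 9.70 and 10.25 at 6 hr, and 8.65, 8.37 and 9.38 at 24 hr. Its 24 hr arrays lay below all others, with a log2 fold change of -1.38 (SE 0.30, adjusted p of 0.294 by limma). Plcb1, Plcb3 and Rgs4 passed the unadjusted thresholds in all 9 fits that left out 1 array. With array weights their adjusted p by limma was 0.000189, 0.000617 and 0.00197. Those weights leaned on replicate 1 of each condition, with the limit given for Kcnh1, and 280 adjusted tests passed over the whole array by that fit. Cntn2, an adhesion protein that clusters Shaker channels, had a log2 fold change of 0.32 with a p of 0.0407 and passed in 2 of those 9 fits.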

How the data were processed

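RNA of 9 pooled culture samples was hybridized to Rat Genome U34A arrays. The authors summarized the probe intensities by robust multi-array average (RMA, version not given in the sources used here) in Partek Genomics Suite 6.5, took out the batch difference and deposited log2 values. The 2 batch means agree to within 6.67e-05 for every probe set. Because the batch had been removed already, values of replicate 1 depend on the other arrays.

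Of 8799 probe sets, 59 controls were left out and 8740 tested, of which 7006 name 1 gene, 308 several and 1426 none here. A linear model of condition plus batch was fitted over all arrays (5 residual degrees of freedom) by limma 3.58.1 (R 4.3.3), and p-values were adjusted after Benjamini and Hochberg, with 0.05 as threshold. The script was tested on simulated data. Genes shown in full are those past a threshold in any comparison, Kcnd2, Kcnh1 and Kcnc1, and examples per family by size at 24 hr or by role; Kcnc2, Kcnh6, Kcnh8, Kcnj8, Kcns1 and others whose arrays did not overlap, the dimmer Kcnd2 probe set, and the partners named were picked with their values in view. The members and lists were chosen with earlier results of these data known. All p-values measure the spread between 3 arrays per condition, and the number of arrays limits precision.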

Additional observations from a re-analysis of the deposited data

How the results depend on the processing

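The counts of potassium channel genes past the unadjusted thresholds were 0 at 6 hr, 2 at 24 hr and 1 between the times. They were 1, 2 and 1 without a batch term, and 0, 0 and 0 in batch 2 alone. With probe sets dimmer than the median left out they were 0, 1 and 0, and with array weights 2, 5 and 4. Without a batch term 1.85%, 3.7% and 1.85% of members passed, against 3.04%, 4.81% and 4.48% of all genes. In batch 2 alone 71, 89 and 46 of all 4736 genes passed. With dim probe sets left out 0%, 5.56% and 0% of 18 members passed, against 2.56%, 6.56% and 5.69% of 2653 genes. With array weights 3.7%, 9.26% and 7.41% of members passed, against 3.53%, 9.44% and 8.04% of all genes. Array weights also gave 1 gene, Kcnh1, past the adjusted test at 24 hr and between the times, and 1 with an F-test p under 0.005. By that fit 280 adjusted tests passed over the whole array at 24 hr and 198 between the times. Median centring, a repeated quantile normalization, the mean over probe sets and the ordinary analysis of variance kept all counts. Leaving out 1 array gave 0 to 2 at 6 hr, 0 to 3 at 24 hr and 0 to 4 between the times, and 0 in each adjusted test and the F-test. The shares of all genes past the unadjusted thresholds ran from 0.908% to 6.95%, 2.28% to 5.74% and 1.71% to 8.55%. At 6 hr Kcnf1 passed without control replicate 1, Kcnj6 without control replicate 2, and Kcnc2 and Kcnf1 without BMP6h replicate 3. At 24 hr no gene passed without BMP24h replicate 1. Without control replicate 1, where neither Kcnh1 nor Kcnc1 passed, 1 other member did (1.85% against 3.57% of all genes). Without BMP6h replicate 2, 3 members passed (5.56% against 5.74%). Between the times 4 passed without BMP6h replicate 3 and 4 without BMP24h replicate 3. Each is 7.41% of members, against 8.55% and 4.08% of all genes. With the replicate number as a block the counts were 1 (Kcnf1), 3 (Kcnf1 added) and 2 (Kcnc2 added), against 4.58%, 5.26% and 4.2% of all genes. The sources used here do not say which dissection a number stands for, and the batch removal forces the deviations of the replicate 1 arrays to cancel, so only batch 2 bears on the pairing, where the correlations between arrays with the same number were 0.02 to 0.40. No sign turned where a member passed a threshold or its arrays did not overlap; Kcnd2 at 6 hr (0.03) was -0.00 in batch 2 alone, -0.04 as the mean over its probe sets and -0.02 without BMP6h replicate 1. The cause of these differences was not tested.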
